A study of Homo sapiens with 6 samples.

Results

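The genes described here encode the machinery that copies and repairs DNA: 54 human genes in 11 groups by role, from the MCM helicase and the factors that load it to the polymerases, the sliding clamp, the enzymes that supply nucleotides and the proteins that repair a broken or stalled fork. They were chosen by name, and a microarray probe was assigned to a gene when the transcript it is annotated with is a RefSeq transcript of that gene. Of the 54 genes, 53 had such a probe, 67 probes in all, and POLA2 was not analysed here. BRCA2 had 1 probe that did not pass the filter on dim probes. The remaining 52 genes, of 11974 tested on the arrays, are called the members below.

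RNA came from MDA-MB-231, a human breast cancer cell line of mesenchymal character, 72 h after transfection with an hsa-miR-205-5p precursor, with an hsa-miR-214-3p precursor or, as negative control, with a scrambled miRNA precursor. Each group had 2 arrays, so the number of arrays limits the precision of every value, and the scrambled arrays are the shared control of both precursors. The question was which transcripts differ when either miRNA is supplied to these cells. The labels do not say whether the arrays of a group came from separate cultures, and the methods speak of independent experiments only in general, so the p-values measure only the spread between these arrays, which may be technical.

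A cell copies its genome once per division. In G1, the origin recognition complex (ORC), CDC6 and CDT1 load the ring of MCM2 to MCM7 onto origins, and in S phase CDC45 and the GINS complex turn that ring into the active helicase, behind which polymerases, the PCNA clamp and its loader RFC synthesize the new strands. Many of these genes are transcribed at the G1 to S transition under E2F factors, and their transcripts are widely used as markers of proliferating tumor cells. Animal miRNAs mostly act by pairing of the seed, bases 2 to 8 from the 5′ end, with messenger RNAs. Because every array holds RNA of a whole culture, fewer cells in S phase and less RNA per cell cannot be told apart.

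The mature miRNAs supplied by the precursors are shown because they define the treated groups, with the seed in capitals (RefSeq, GRCh38.p14). The first lies at chr1:209432166-209432187 on the plus strand and the second at chr1:172138816-172138837 on the minus strand. The seeds differ.
hsa-miR-205-5p: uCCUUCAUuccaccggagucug
hsa-miR-214-3p: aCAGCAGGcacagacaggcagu

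Promoters of 4 members are shown because E2F-type motifs were searched for as a sequence feature the members might share, and because these genes recur in the results below. Each is the strand of the gene, 5′ to 3′, from 250 bases before to 50 bases after the transcription start (RefSeq, GRCh38.p14). MCM2 lies at chr3:127598161-127598460 on the plus strand, MCM6 at chr2:135876394-135876693 on the minus strand, MCM7 at chr7:100101348-100101647 on the minus strand and ORC6 at chr16:46689409-46689708 on the plus strand. Capitals mark matches to TTTCCCGC, TTTGGCGC, TTTCGCGC or TTTGCCGC on either strand, and neighbouring matches on opposite strands overlap in MCM2 and MCM6. The ORC6 promoter held no match.
MCM2: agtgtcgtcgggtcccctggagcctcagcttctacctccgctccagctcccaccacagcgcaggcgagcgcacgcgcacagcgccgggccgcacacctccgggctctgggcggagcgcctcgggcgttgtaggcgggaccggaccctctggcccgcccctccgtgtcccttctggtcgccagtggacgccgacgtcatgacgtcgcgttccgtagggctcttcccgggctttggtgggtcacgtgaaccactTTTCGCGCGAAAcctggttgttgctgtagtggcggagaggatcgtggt
MCM6: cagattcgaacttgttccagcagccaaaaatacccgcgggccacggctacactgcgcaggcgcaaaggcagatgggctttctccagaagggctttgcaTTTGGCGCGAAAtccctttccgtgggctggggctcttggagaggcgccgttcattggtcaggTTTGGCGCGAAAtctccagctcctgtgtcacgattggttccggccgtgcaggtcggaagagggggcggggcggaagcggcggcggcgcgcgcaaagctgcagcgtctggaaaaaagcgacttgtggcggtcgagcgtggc
MCM7: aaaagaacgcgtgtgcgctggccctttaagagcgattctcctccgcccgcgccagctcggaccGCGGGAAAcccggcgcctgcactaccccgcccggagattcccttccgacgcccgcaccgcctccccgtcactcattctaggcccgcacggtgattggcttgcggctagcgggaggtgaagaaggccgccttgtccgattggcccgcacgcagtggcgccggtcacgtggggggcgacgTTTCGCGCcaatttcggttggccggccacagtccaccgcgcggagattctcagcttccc
ORC6: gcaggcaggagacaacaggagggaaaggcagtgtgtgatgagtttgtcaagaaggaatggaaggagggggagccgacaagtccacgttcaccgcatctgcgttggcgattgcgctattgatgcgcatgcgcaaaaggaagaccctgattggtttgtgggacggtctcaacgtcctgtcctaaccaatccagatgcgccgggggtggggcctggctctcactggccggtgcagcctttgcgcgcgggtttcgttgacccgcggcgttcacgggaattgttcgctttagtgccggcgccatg

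A promoter was given for 47 of the 54 genes, and 21 of these (44.7%) held a match. The share was 15.3% among 98 promoters of other replication and repair genes, 7.89% among 38 promoters of mitosis and spindle genes and 3.33% among all 27305 promoters of the same length. A match is a string of letters in this window and was not tested as a binding site.

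All 6 arrays lay on 1 slide and were scanned together, with the arrays of the hsa-miR-214-3p precursor in the second row and the others in the first. With control spots set aside, between 35.4% and 42.2% of 58717 spots were well above background on each array, fewest on the hsa-miR-205-5p arrays, and 0 were saturated. Replicates differed by a root mean square of 0.67 log2 units in the scrambled group, 0.51 in the hsa-miR-205-5p group and 0.34 in the hsa-miR-214-3p group. The markers VIM, CD44, AXL, ZEB1 and MSN, which are known in MDA-MB-231, were well above background on 6 of 6 arrays, and ESR1, PGR and the liver marker ALB on 0. CDH1, the epithelial cadherin that this line is known to lack or hold at low level, was well above background on all 6 arrays and higher with the hsa-miR-205-5p precursor (log2 1.96, limma adjusted p = 0.00799). The leukocyte marker PTPRC was well above background on 2 arrays and the endothelial marker PECAM1 on 3, of which 0 belonged to the hsa-miR-205-5p group. Against the scrambled control PECAM1 was called lower in that group, by at least 2.25-fold (limma adjusted p = 0.00898). The part of these markers in the results below was not tested.

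Signals are given as normalized log2 signals, that is log2 of the processed intensity of a probe minus the 75th percentile of its array, so a value of 0 is the level of that percentile. A gene is represented by its brightest kept probe. Signals are compared between arrays and are not read as amounts of RNA between genes, because probes differ in brightness for the same amount. Only where probe brightness is set beside the differences are signals ranked across genes. A call needed a change of at least 2-fold and a limma adjusted p under 0.05 (Benjamini-Hochberg, over all kept probes). Of the 52 members, 51 were well above background on all 6 arrays, and RFC2 was on 5. The plot of all members by array sets these values side by side.

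**Figure D1:**
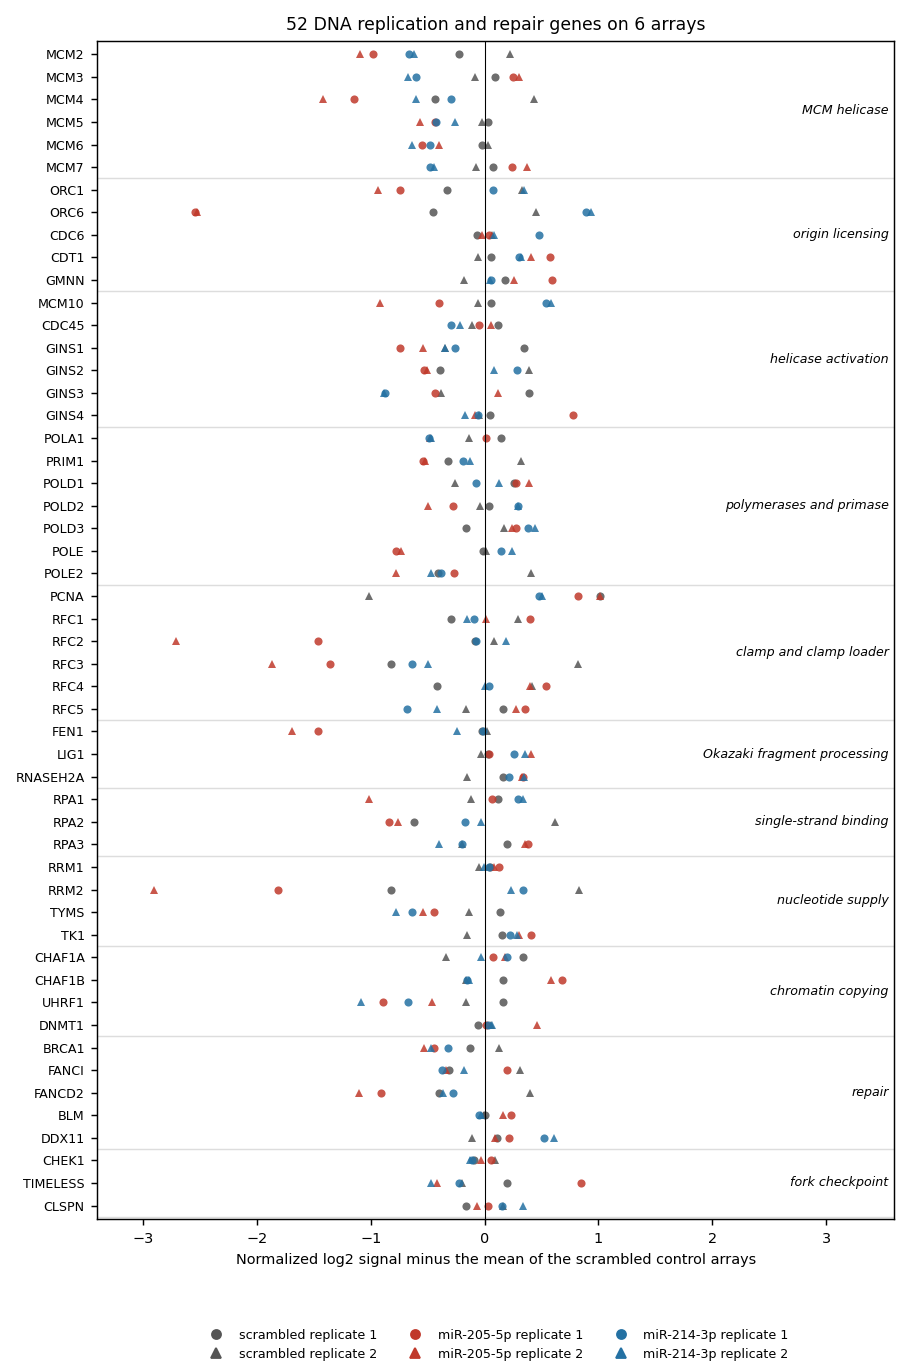
Each row is 1 of the 52 members, grouped by role, and each point is 1 array: its normalized log2 signal minus the mean of the 2 scrambled control arrays (horizontal axis, log2 units). Circles are replicate 1 and triangles replicate 2. Points of the hsa-miR-205-5p precursor (red) reach furthest to the left, at ORC6, RRM2 and RFC2, while most members lie within 1 log2 unit of the control mean in both groups.

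With the hsa-miR-205-5p precursor, 5 of the 52 members fell against the scrambled control and 0 rose. They were ORC6, RFC2, FEN1, MCM4 and MCM2, with log2 differences from -2.54 to -1.04. This is 9.62% of the members, beside 7.98% of all genes tested called lower (956 genes) and 4.78% called higher (572 genes). Over the 51 members measured on all 4 arrays compared, which leaves out RFC2, 4 were called lower (7.84%, beside 6.73% of all genes so measured). At this scaling the share of falling members was thus close to that of all genes. The median difference over the members was -0.05 against 0.08 over all genes, and 27 members lay below 0 and 25 above. These signs depend on the processing: 39 of the 52 were the same whichever array was left out, and 31 over the scalings tried. No member was called higher by limma, also at an unadjusted p under 0.05 with the same fold limit, or by the methods' t-test at that limit. The count of falls depended on which arrays were in the fit. Leaving out any array also takes degrees of freedom from the fit. Leaving out an hsa-miR-214-3p array left the differences from the control unchanged (ORC6 stayed at -2.54). Without the second hsa-miR-205-5p array limma called 0 members and 0 genes in all, and without the first it called 3 members lower (beside 4.71% of all genes). Without the first scrambled array it called 9 members lower and 1 higher (PCNA), beside 11.7% and 8.89% of all genes, and without the second 2 lower (beside 6.63%). Without either hsa-miR-214-3p array it called 2 lower, ORC6 and FEN1 (beside 3.38%). The counts over all genes thus moved with those of the members. Without a fold limit, limma gave 16 members lower (30.8%, beside 18.9% of all genes) and 2 higher (3.85%, beside 20.6%) at an unadjusted p under 0.05. The split of calls over all genes moved with the processing. It was 1876 lower and 212 higher when arrays were scaled to their median, which shifts all genes by -0.39. After normexp background correction it was 619 lower and 133 higher. The members called lower were 13 with that scaling (beside 15.7% of all genes) and 3 after normexp (beside 5.17%).

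Counted by overlap alone, both hsa-miR-205-5p arrays lay below both scrambled arrays in 21 members (40.4%, beside 28.6% of all genes) and above them in 14 (26.9%, beside 36.6%). POLE, the catalytic subunit of the leading-strand polymerase, also passed the adjusted p but changed less than 2-fold (log2 -0.76, SE 0.15, limma adjusted p = 0.0265). The other kept probe of POLE, which is dimmer, gave 0.02 (adjusted p = 0.957). With POLE, 6 members were lower at any fold (11.5%, beside 11.3% of all genes) and 0 higher (beside 9.81%). The other polymerase and primase genes lay between -0.53 and 0.33.

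The steepest fall was in origin licensing. ORC6, the smallest subunit of the origin recognition complex, had normalized log2 signals of -0.21 and -0.19 on the hsa-miR-205-5p arrays, 1.89 and 2.79 on the scrambled arrays and 3.23 and 3.28 on the hsa-miR-214-3p arrays. The 3 groups did not overlap, and the order was the same whichever replicate was taken. The difference from the scrambled control was log2 -2.54 (SE 0.31, limma adjusted p = 0.0102), a 5.81-fold fall. ORC1, the ATPase subunit of the same complex, had signals of -0.40 and -0.60 with the hsa-miR-205-5p precursor, 0.01 and 0.67 with the scrambled control and 0.41 and 0.69 with the hsa-miR-214-3p precursor. Its 2 lowest arrays were those of the hsa-miR-205-5p precursor, but the difference of -0.84 (SE 0.27) did not pass (adjusted p = 0.0831).

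The other licensing factors showed no such drop. CDT1, which brings the MCM ring to origins, had signals of 4.29 and 4.12 with the hsa-miR-205-5p precursor, 4.02 and 4.03 with the hsa-miR-214-3p precursor and 3.78 and 3.66 with the scrambled control. Its arrays with either precursor lay above both control arrays, by log2 0.49 (SE 0.16, adjusted p = 0.0865) and 0.31 (adjusted p = 0.312), and neither passed. GMNN, the inhibitor of CDT1, differed by 0.43 and CDC6, the ATPase that recruits CDT1, by 0.01.

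Of the 6 subunits of the MCM ring, 2 fell. MCM2 had normalized log2 signals of 3.61 and 3.50 on the hsa-miR-205-5p arrays, 4.36 and 4.82 on the scrambled arrays and 3.93 and 3.98 on the hsa-miR-214-3p arrays. The hsa-miR-205-5p arrays were lowest and the scrambled arrays highest, without overlap, and the difference was log2 -1.04 (SE 0.20, limma adjusted p = 0.0261). It was -0.81 and not called without the second scrambled array, and the call was lost in 8 of 19 alternatives. MCM4 had signals of -0.29 and -0.57 with the hsa-miR-205-5p precursor, 0.42 and 1.29 with the scrambled control and 0.56 and 0.25 with the hsa-miR-214-3p precursor. Here too the hsa-miR-205-5p arrays were the lowest, with a difference of -1.29 (SE 0.33, adjusted p = 0.0483), close to the threshold, and of -0.85 without the second scrambled array, where it was not called. The remaining subunits did not pass: MCM5 and MCM6 differed by -0.50 and -0.48, and MCM3 and MCM7 by 0.27 and 0.31. The sign of MCM3 and MCM7 depends on the scaling, because all 6 subunits lay below 0 (-1.68 to -0.08) when arrays were scaled to their median.

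In the clamp loader, RFC2 fell while its partners did not pass. RFC2, a small subunit of the RFC complex that opens PCNA and places it on DNA, had signals of -1.40 and -2.65 on the hsa-miR-205-5p arrays, -0.02 and 0.15 on the scrambled arrays and -0.01 and 0.25 on the hsa-miR-214-3p arrays. The last 2 groups overlapped and the hsa-miR-205-5p arrays stood apart, with the 2 replicates over 1 log2 unit from each other. The difference was log2 -2.09 (SE 0.41, limma adjusted p = 0.0267), but only 1 of the 2 hsa-miR-205-5p arrays had the probe well above background, so the size of the fall is uncertain. After normexp background correction it was -0.56, under 2-fold, and RFC2 kept its call in 9 of 19 alternatives. RFC3 had signals of 0.06 and -0.45 with the hsa-miR-205-5p precursor, 0.59 and 2.24 with the scrambled control and 0.78 and 0.92 with the hsa-miR-214-3p precursor. The scrambled replicates lay about as far apart as the group means, and the difference of -1.61 (SE 0.54) did not pass (adjusted p = 0.0938) and was -0.79 without the second scrambled array. RFC1, RFC4 and RFC5 differed by 0.20, 0.47 and 0.32.

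FEN1, the flap endonuclease that trims Okazaki fragments before ligation, fell with the smallest standard error of the 5. Its normalized log2 signals were 0.75 and 0.52 on the hsa-miR-205-5p arrays, 2.19 and 2.23 on the scrambled arrays and 2.20 and 1.97 on the hsa-miR-214-3p arrays. Only the hsa-miR-205-5p arrays were low, and the difference was log2 -1.57 (SE 0.18, limma adjusted p = 0.00914), a 2.98-fold fall. LIG1, the ligase that seals the fragments, and RNASEH2A, a subunit of the nuclease that removes RNA from them, differed by 0.22 and 0.33.

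RRM2, the regulatory subunit of ribonucleotide reductase, had signals of 0.28 and -0.82 on the hsa-miR-205-5p arrays, 1.26 and 2.91 on the scrambled arrays and 2.42 and 2.32 on the hsa-miR-214-3p arrays. The hsa-miR-205-5p arrays were lowest, but both they and the scrambled arrays were far apart, and the difference of -2.36 (SE 0.62) narrowly missed the threshold (limma adjusted p = 0.0521). Its 95% interval ran from -3.90 to -0.81, and without the second scrambled array the difference was -1.53. RRM1, the large subunit of the same enzyme, differed by 0.11, the salvage kinase TK1 by 0.36 and the thymidylate synthase TYMS by -0.50, and none of these passed.

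No gene passed among helicase activation factors, single-strand binding proteins, chromatin copying factors, repair genes or fork checkpoint genes. The lowest of these 21 was FANCD2, the Fanconi anemia protein that marks stalled forks, at log2 -1.01 (SE 0.29, limma adjusted p = 0.0641). BRCA1, of the homologous recombination pathway, differed by -0.49 and MCM10, which helps to activate the helicase, by -0.66. CHAF1B, a subunit of the chromatin assembly factor that deposits histones behind the fork, had signals of 4.68 and 4.59 with the hsa-miR-205-5p precursor, 4.16 and 3.84 with the scrambled control and 3.84 and 3.86 with the hsa-miR-214-3p precursor. The hsa-miR-205-5p arrays were the highest, by 0.63 over the control (SE 0.18, adjusted p = 0.0618). The checkpoint genes CHEK1, CLSPN and TIMELESS lay between -0.02 and 0.22.

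**Figure D2:**
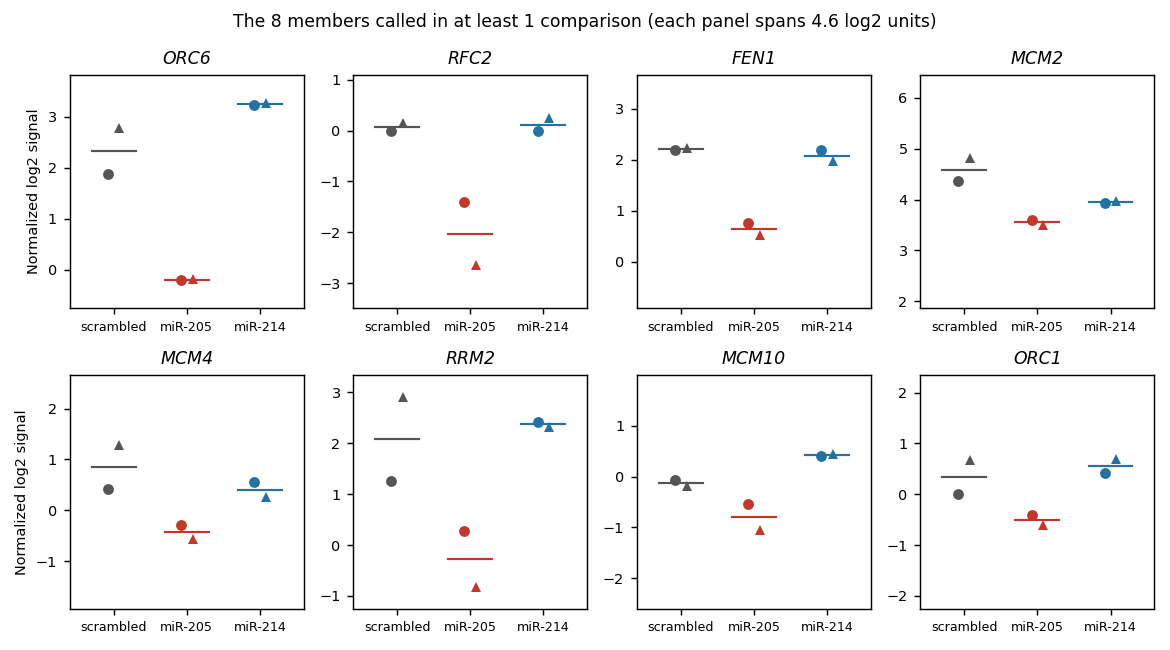
Normalized log2 signal (vertical axis, the same span in each panel) of the 8 members called in at least 1 of the 3 comparisons, by group; circles are replicate 1, triangles replicate 2 and bars the group mean. The hsa-miR-205-5p arrays are the lowest in all 8 panels, and the scrambled replicates of RRM2 and ORC6 lie far apart.

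With the hsa-miR-214-3p precursor, none of the 52 members passed. Over all genes, 2.03% were called lower and 1.09% higher (243 and 131 genes). Without the fold limit the adjusted p was passed by 0 members in either direction (beside 2.09% lower and 1.21% higher of all genes). At an unadjusted p under 0.05 without a fold limit, limma gave 8 members lower (15.4%, beside 13.4% of all genes) and 3 higher (5.77%, beside 10.8%), and 0 with the limit. The methods' t-test gave 4 lower (7.69%, beside 9.5%) and 5 higher (9.62%, beside 7.99%) without the limit. The median over the members was -0.11 against -0.01 over all genes, with values from -0.88 to 0.92. Both arrays lay below both control arrays in 16 members (30.8%, beside 30.7% of all genes) and above in 12 (23.1%, beside 27.7%). Without the second scrambled array ORC6 was called higher, beside 5.47% of all genes. Over all genes, the calls were 278 lower and 44 higher with arrays scaled to their median, which shifts all genes by -0.17, and 208 and 37 after normexp.

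Of the 11 roles, the MCM ring had the narrowest range. All 6 subunits lay below 0, between -0.64 and -0.35, and in 5 of them, all but MCM4, both arrays were below both control arrays (as in 30.7% of all genes). The 6 signs were the same under every other scaling, background correction, probe rule and left-out array tried, although the highest of them came to -0.01 without the second scrambled array. MCM3 had signals of 6.50 and 6.43 on the hsa-miR-214-3p arrays, 7.20 and 7.02 on the scrambled arrays and 7.35 and 7.41 on the hsa-miR-205-5p arrays. The hsa-miR-214-3p arrays were the lowest and the replicates lay close together, with a difference of -0.64 (SE 0.16, limma adjusted p = 0.0986). None of the 6 MCM subunits passed on its own. A shared sign was not particular to the MCM ring. All 5 origin licensing genes lay above 0, between 0.05 and 0.92, and 0 of them passed. In 3 of these 5 both arrays were above both control arrays (as in 27.7% of all genes).

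The lowest members were UHRF1, GINS3 and TYMS. UHRF1, which directs maintenance DNA methylation to new strands, had signals of 2.07 and 1.66 with the hsa-miR-214-3p precursor, 2.90 and 2.58 with the scrambled control and 1.85 and 2.28 with the hsa-miR-205-5p precursor. Both precursors lay below the control and overlapped each other, and the differences were -0.88 (SE 0.25, limma adjusted p = 0.126) and -0.68 (adjusted p = 0.115). Its other kept probe gave smaller differences of -0.24 (adjusted p = 0.496) and -0.47 (adjusted p = 0.139). GINS3, a subunit of the GINS complex, had signals of 2.80 and 2.79 with the hsa-miR-214-3p precursor, 4.06 and 3.29 with the scrambled control and 3.24 and 3.80 with the hsa-miR-205-5p precursor. Its difference of -0.88 (SE 0.32) came with control replicates far apart (adjusted p = 0.194), and was -0.49 without the first scrambled array and -1.27 without the second. TYMS, which makes thymidylate, had signals of 4.93 and 4.80 with the hsa-miR-214-3p precursor, 5.71 and 5.43 with the scrambled control and 5.13 and 5.03 on the hsa-miR-205-5p arrays. The 3 groups did not overlap, and the difference was -0.71 (SE 0.18, adjusted p = 0.100).

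The highest members were ORC6, DDX11 and MCM10. ORC6, with the signals given above, differed by log2 0.92 (SE 0.31, limma adjusted p = 0.169), which was 0.46 without the first scrambled array and 1.37 without the second. DDX11, a helicase of sister chromatid cohesion, had signals of 3.95 and 4.03 with the hsa-miR-214-3p precursor, 3.54 and 3.31 with the scrambled control and 3.64 and 3.52 with the hsa-miR-205-5p precursor. Its hsa-miR-214-3p arrays were the highest, by 0.57 (SE 0.17, adjusted p = 0.134), with its other probes at 0.41 and 0.11, but the gene has near-identical copies elsewhere in the genome, so its probes may read more than 1 locus. MCM10 had signals of 0.41 and 0.45 with the hsa-miR-214-3p precursor, -0.07 and -0.19 with the scrambled control and -0.53 and -1.05 with the hsa-miR-205-5p precursor. Its 3 groups did not overlap, and the difference from the control was 0.56 (SE 0.22, adjusted p = 0.211).

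Set directly against the hsa-miR-214-3p precursor, the hsa-miR-205-5p precursor gave lower values for 6 members and higher for 0. They were ORC6, RRM2, RFC2, FEN1, MCM10 and ORC1. This is 11.5%, beside 11.3% of all genes called lower (1352 genes) and 9.18% called higher (1099 genes). Over the 51 members measured on all 4 arrays compared, 5 were lower (9.8%, beside 9.56% of all genes so measured). In RFC2 only 1 of the 2 hsa-miR-205-5p arrays had the probe well above background, and its call was lost after normexp (-0.57). When all 6 arrays had to be above background RFC2 was not tested, which is counted as a lost call. After normexp FEN1, MCM10 and ORC1 were not called either, which left ORC6 and RRM2. Of 19 alternatives, the call was lost in 0 for ORC6, 4 for FEN1, 6 for RFC2 and MCM10 and 7 for RRM2 and ORC1. limma gave no further member past 2-fold at an unadjusted p under 0.05, and the methods' t-test gave 0 higher at that limit. The differences used the arrays described above: ORC6 differed by log2 -3.45 (SE 0.31, limma adjusted p = 0.00397) and RRM2 by -2.64 (SE 0.62, adjusted p = 0.0284). RFC2 differed by -2.14 (adjusted p = 0.0171), FEN1 by -1.45 (adjusted p = 0.0057), MCM10 by -1.22 (adjusted p = 0.0137) and ORC1 by -1.05 (adjusted p = 0.0354). In all 6, both hsa-miR-205-5p arrays lay below both hsa-miR-214-3p arrays, as in 22 members in all (42.3%, beside 34.6% of all genes), and 18 lay above (34.6%, beside 45.7%). Without the first or the second hsa-miR-214-3p array limma called 1 member lower (beside 2.8% and 1.55% of all genes), and without the second hsa-miR-205-5p array 3 (beside 7.18%), so the counts over all genes dropped too. Over all genes, scaling to the median gave 1801 lower and 638 higher, with a shift of -0.22.

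A further 6 members passed the adjusted p with under 2-fold, in opposite directions. POLE and POLD2, of the leading-strand and lagging-strand polymerases, were lower by log2 -0.95 (limma adjusted p = 0.0102) and -0.68 (adjusted p = 0.0294). The other kept probe of POLE gave -0.35 (adjusted p = 0.359). MCM3, MCM7, RFC5 and CHAF1B were higher, by 0.91, 0.77, 0.87 and 0.78 (limma adjusted p from 0.0127 to 0.0268), although the other kept probe of MCM7 gave -0.26 (adjusted p = 0.247). At any fold, 8 members (15.4%, beside 16.0% of all genes) were thus lower and 4 (7.69%, beside 17.9%) higher. RFC5, another clamp loader subunit, had signals of 6.18 and 6.10 with the hsa-miR-205-5p precursor, 5.14 and 5.40 with the hsa-miR-214-3p precursor and 5.99 and 5.66 with the scrambled control. Its hsa-miR-214-3p arrays were the lowest and the 3 groups did not overlap. Subunits of the same complex differed in opposite directions between the precursors, for example RFC2 and RFC5 in the clamp loader. The median over the members was 0.05, beside 0.12 over all genes.

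**Figure D3:**
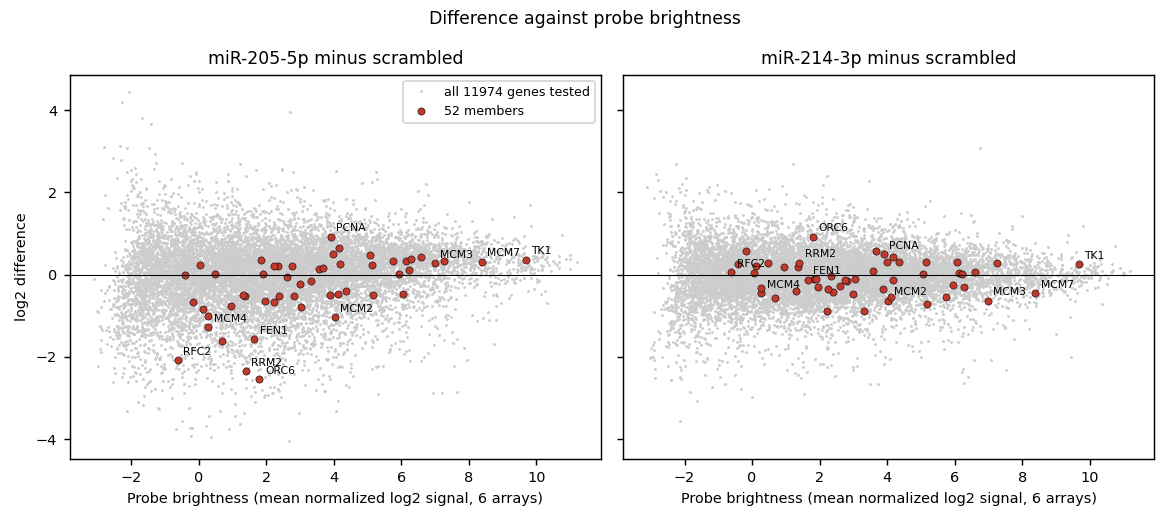
Each point is a gene: its mean normalized log2 signal over the 6 arrays (horizontal axis) and its log2 difference from the scrambled control (vertical axis), with all 11974 genes tested in gray and the 52 members in red. In the left panel the 26 dimmer members have a median of -0.53 and the 26 brighter 0.24, and in the right panel the medians are -0.12 and 0.02.

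Level on the array and difference were set side by side. Among the 26 members with the dimmer probes the median difference was log2 -0.53 and 4 were called lower, and among the 26 with the brighter probes the median was 0.24 and 1 was called lower. Of all genes, 9.32% of those below the members' middle brightness were called lower (median -0.02) and 5.78% of those above it (median 0.21). Brightness is the mean over the 6 arrays, so a fall with the precursor itself lowers it. Across the 52 members, brightness and difference had a Pearson correlation of 0.53 and a Spearman correlation of 0.62, beside 0.14 and 0.15 across all 11974 genes. These are descriptions across genes of the same arrays, which share array, background and scaling, and genes are not independent replicates. With brightness taken from the hsa-miR-214-3p arrays alone, which are not in the comparison, the correlations were 0.45 and 0.55, the medians -0.52 and 0.24, and 3 and 2 members were called lower (beside 8.16% and 7.69% of all genes). For the hsa-miR-214-3p precursor the correlations across the members were -0.08 and -0.07 and the medians -0.12 and 0.02. The hsa-miR-205-5p arrays were also those with the fewest spots well above background, and the part of signal level in the falls was not tested. After normexp background correction the Spearman correlation was 0.30.

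Several probes of 1 gene often disagreed. Of the members, 10 had more than 1 kept probe, 22 probes in all. For the hsa-miR-205-5p precursor, probes of 6 of the 10 lay on both sides of 0 and those of 5 differed by at least 1 log2 unit, whereas with the hsa-miR-214-3p precursor the counts were 2 and 1. Counted by probe, 7 of the 64 kept probes of the members were called lower with the hsa-miR-205-5p precursor (beside 8.05% of all 18464 kept probes) and 0 with the hsa-miR-214-3p precursor (beside 1.68%).

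PCNA, the sliding clamp, showed the spread between probes. Its brightest probe had normalized log2 signals of 4.26 and 4.45 with the hsa-miR-205-5p precursor, 3.92 and 3.94 with the hsa-miR-214-3p precursor and 4.45 and 2.42 with the scrambled control. The second scrambled array alone was low, and the difference of 0.92 (SE 0.63, limma adjusted p = 0.335) rested on it, since it was -0.10 without that array. The other PCNA probes gave -0.54 (adjusted p = 0.139) and -0.77 (SE 0.17, adjusted p = 0.0348), the latter from signals of 1.36 and 1.48 with the hsa-miR-205-5p precursor, 1.56 and 1.63 with the hsa-miR-214-3p precursor and 2.06 and 2.33 with the scrambled control. On that probe the scrambled arrays were the highest. No direction can be given for PCNA.

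MCM7 had a bright probe at 0.31 (limma adjusted p = 0.215) and a dim probe at -0.91 (SE 0.16, adjusted p = 0.0207) with the hsa-miR-205-5p precursor. With the hsa-miR-214-3p precursor both lay below 0, at -0.46 and -0.64. MCM5 had probes at -0.50 and -0.84 with the hsa-miR-205-5p precursor, of which the dim one passed the adjusted p (0.0297) but not the fold limit. For RPA1, the large subunit of the single-strand binding complex, the bright probe gave -0.47 (adjusted p = 0.382) and the dim one -1.33 (adjusted p = 0.0295). DDX11 had 3 probes, at 0.15, -0.58 and -1.43, and the last was called (adjusted p = 0.00884).

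RPA2, the middle subunit, split between the precursors. Its brightest probe had signals of 2.50 and 2.58 with the hsa-miR-205-5p precursor, 3.17 and 3.31 with the hsa-miR-214-3p precursor and 2.72 and 3.96 with the scrambled control, and its other probe 2.42 and 2.69, 1.52 and 1.18, and 2.10 and 2.57. The hsa-miR-214-3p arrays were above the hsa-miR-205-5p arrays on the first probe and below them on the second. Between the precursors the probes gave log2 -0.69 (SE 0.40, limma adjusted p = 0.229) and 1.21 (SE 0.24, adjusted p = 0.0191).

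**Figure D4:**
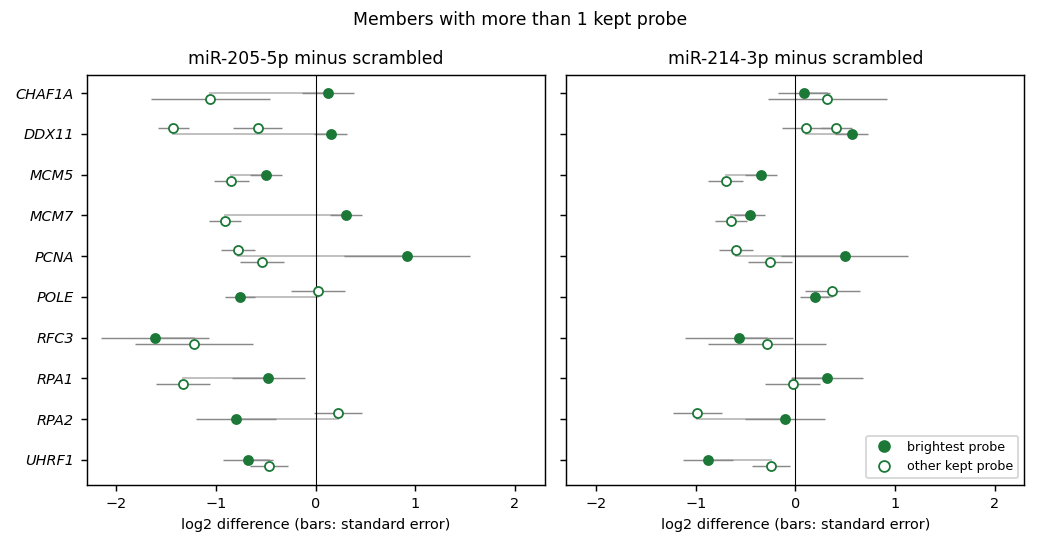
log2 difference from the scrambled control (horizontal axis) for the 10 members with more than 1 kept probe; filled points are the brightest probe of a gene, open points its other kept probes, and bars the standard error of the limma fit. In the left panel the probes of 6 genes lie on both sides of 0, and in the right panel those of 2.

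The members with an E2F-type motif in the promoter had lower medians than those without one against the control. For the hsa-miR-205-5p precursor, the median difference was log2 -0.35 over the 20 tested members with a match and 0.11 over the 25 without, and with the hsa-miR-214-3p precursor -0.37 and 0.03. Between the precursors the medians were 0.00 and 0.05. With the hsa-miR-205-5p precursor, 1 of the 20 members with a match (MCM2) was called lower, beside 7.98% of all genes. Of the 25 without, 3 were (ORC6, RFC2 and FEN1). Between the precursors 0 of the 20 and 6 of the 25 were called lower, beside 11.3% of all genes. MCM4 had no promoter sequence in the table. These medians and small counts describe the groups, and the differences between the groups were not tested.

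Beyond the members, 118 other genes of DNA replication and repair were listed, and 104 were tested. With the hsa-miR-205-5p precursor 11 of them (10.6%, beside the 7.98% of all genes) were called lower and 2 higher (1.92%, beside 4.78%), with a median of 0.00. LIG3, the ligase of base excision repair, had 0 of 2 hsa-miR-205-5p arrays well above background, so only a bound can be given: it fell at least 1.64-fold (limma adjusted p = 0.00799). Such a bound sets the brighter group against the lowest signal well above background on each array of the dimmer one. HUS1, another of the 11, likewise had 0 arrays above background there and no usable bound. Over the 94 genes measured on all 4 arrays compared, 8 were called lower (8.51%, beside 6.73% of all genes so measured). Among the largest measured falls were the clamp loader accessory gene CHTF8 at log2 -1.92, the abasic site endonuclease APEX1 at -1.84 and the nucleotide excision helicase ERCC3 at -1.57. The genes that rose were RMI2, of the BLM complex, at 1.15 and FANCE, of the Fanconi anemia core complex, at 1.11. By role, 5 of the 20 tested genes of mismatch and excision repair were lower, LIG3 with its bound under 2-fold among them, of 18 genes of homologous recombination 0 were lower and 1 was higher, of 9 checkpoint genes 2 were lower, HUS1 among them, and each of the remaining 6 roles had 0 or 1 lower. With the hsa-miR-214-3p precursor 1 of the 104 (0.962%, beside 2.03% of all genes) was called lower, POLE3, a small subunit of the leading-strand polymerase, at -1.28. Between the precursors 13 were lower (12.5%, beside 11.3% of all genes) and 5 higher (4.81%, beside 9.18%). LIG3 and RAD51AP1, not well above background with the hsa-miR-205-5p precursor, were at least 2.54-fold and 1.17-fold lower, and HUS1 had no usable bound, so the 2-fold limit was not shown for the last 2. Of the 94 genes measured on all 4 arrays, 9 were lower (9.57%, beside 9.56% of all genes so measured). Of those measured in both groups, APEX1 at log2 -2.21 and BARD1 at -2.10 were among the lowest, and PRIM2, POLE3, UNG, TIPIN and ORC4 were the highest, at 1.04 to 1.14.

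Mitosis and spindle genes act later in the same cycle. Of 44 tested, 11 (25%, beside 7.98% of all genes) were called lower with the hsa-miR-205-5p precursor and 0 higher (beside 4.78%), with a median of log2 -0.71, beside 5 of 52 and a median of -0.05 for the replication and repair genes. Of 17 G1 cyclin, CDK and E2F genes, 2 (11.8%) were lower, with a median of -0.67. With the hsa-miR-214-3p precursor the medians were 0.15 for the mitosis genes, with 0 called, and 0.05 for the G1 genes, with CCNE1 called lower (5.88% of that list), beside 2.03% of all genes lower and 1.09% higher. The 11 mitosis genes include NCAPH, with 0 of 2 hsa-miR-205-5p arrays above background and a fall of at least 1.42-fold, under the 2-fold limit. Over the 41 measured on all 4 arrays, 10 were called lower (24.4%, beside 6.73%). The difference between the lists was not tested. A change of scaling shifts the medians of all lists alike.

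**Figure D5:**
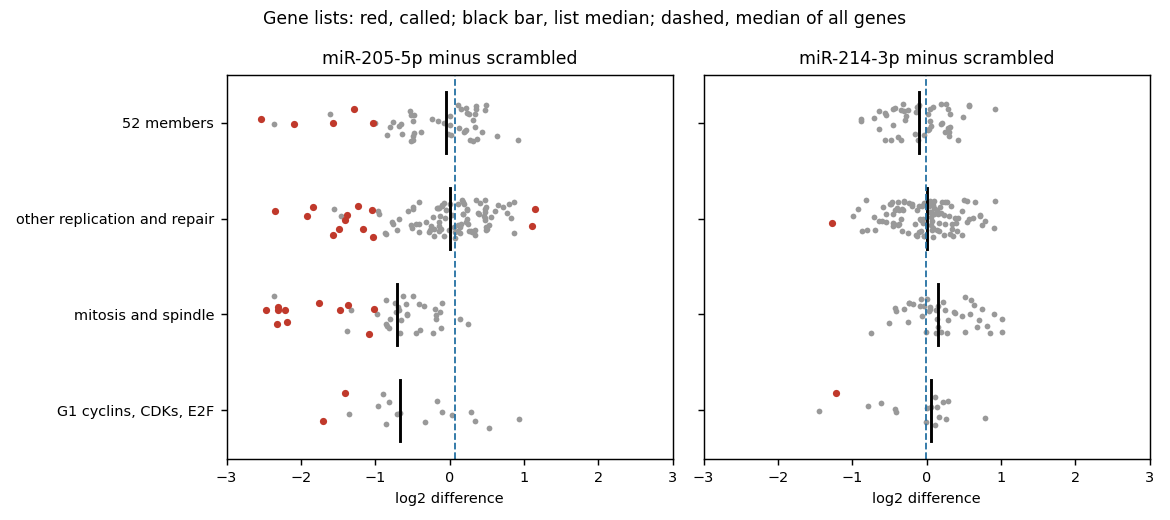
log2 difference from the scrambled control (horizontal axis) for the genes of 4 lists; each point is a gene, red where called, the black bar is the list median and the dashed line the median of all 11974 genes. In the left panel the mitosis list lies mostly below 0 with a median of -0.71, while the 52 members center near the dashed line with a tail to the left.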

How the data were processed

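The authors hybridized labeled RNA of each sample to an Agilent array and deposited what Feature Extraction 11.0 wrote for each scan. The deposited processed signal is a linear intensity with the background removed, and arrays were not yet normalized to each other. They also deposited a table of log2 values for 50739 probes, with identical sorted columns and a median of 3.49 in each, which was used only as an alternative. In R 4.3.3 with limma 3.58.1, control and outlier spots were dropped, replicate spots were averaged per probe, and log2 values were taken relative to the 75th percentile of their array. A probe was kept where both arrays of some group had it well above background (18464 of 50599), and 30275 probes were named through RefSeq accessions (GRCh38.p14). The fit (lmFit, eBayes) took all 6 arrays and had 3 residual degrees of freedom. The procedure was tested on simulated data. The members and all gene lists were chosen with earlier results of these data known.

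Values on every array are given for members called in a comparison, for the 3 largest falls and the 3 largest rises per comparison among members well above background on the 4 arrays compared, and for members whose probes lay on opposite sides of 0 by over 0.5 log2. Other pathway genes are named only among the 5 largest falls and the 5 largest rises called. A gene that this rule would name is not reported here. Plots were made with matplotlib 3.10.9. Alternatives were normexp with an offset of 50, run on the median signal since the files hold no mean signal, quantile normalization, scaling to the median, another percentile, the authors' table, other filters, a fit on 4 arrays, a replicate block, limma-trend, each array left out, other probe rules, no fold limit, unadjusted p and the methods' t-test. A slide or scan block could not be fitted because all arrays lay on 1 slide.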

Additional observations from a re-analysis of the deposited data

How the results depend on the processing

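Under quantile normalization, the authors' table, the mean or the dimmest of a gene's probes, and limma-trend, the 5 members called lower with the hsa-miR-205-5p precursor remained called. ORC6 kept its call in 17 of 19 alternatives and FEN1 in 16 (the methods' t-test counted after Benjamini-Hochberg), whereas MCM2 lost it in 8, RFC2 in 10 and MCM4 in 11. The count for RFC2 includes the filter on all 6 arrays, under which it was not tested. The count of members lower was 8 at an unadjusted p (beside 10.0% of all genes), 3 after normexp (5.17%), 13 with arrays scaled to the median (15.7%), 1 without a filter on dim probes (0.947%), 2 in the fit on 4 arrays (3.38%), 3 by the methods' t-test unadjusted (5.78%) and 0 after Benjamini-Hochberg (0 genes in all). It ranged from 0 to 9 when each array was left out, and the count higher from 0 to 1. The median over the members moved to -0.23 after normexp, -0.43 with scaling to the median and -0.26 with the mean of a gene's probes. PCNA was at 1.94 without the first scrambled array and turned to -0.10 without the second, to -0.13 with the mean of its probes and to -0.77 with its dimmest probe.

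With the hsa-miR-214-3p precursor the count higher ranged from 0 to 1 when each array was left out, and no other alternative called a member. Without a filter, on 4 arrays, with the replicate block, by the methods' t-test after Benjamini-Hochberg and without any array but the second scrambled one, 0 genes in all were called, so those counts say nothing about the members. Between the precursors, the count lower was 2 after normexp (beside 5.45% of all genes), 2 without a filter (3.34%) and 1 by the methods' t-test after Benjamini-Hochberg (7.88%), and ranged from 1 to 7 over left-out arrays (1.55% to 12.5%). The count higher was 4 without a fold limit (17.9%) and 1 with the dimmest probe (8.4%). The median moved to -0.18 with scaling to the median. The causes of these moves were not tested, except that a fit on fewer arrays has fewer degrees of freedom and that scaling shifts every gene alike. Without a filter, the medians of all genes shifted by 0.31, 0.18 and 0.19 in the 3 comparisons.

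The Spearman correlation of brightness with the difference, an alternative chosen after seeing the data, was 0.30 after normexp, 0.55 with brightness from the hsa-miR-214-3p arrays alone and 0.44 without the second scrambled array with the hsa-miR-205-5p precursor. Replicate numbers did not pair the samples (correlations of deviations 0.11, 0.01 and -0.05). With the replicate number as a block, 4 members were lower with the hsa-miR-205-5p precursor (MCM4 was lost; 7.04% of all genes), 0 with the hsa-miR-214-3p precursor (0 genes in all) and 5 between the precursors (RRM2 was lost; 10.8%). Where leaving out an array left a group with 1, that array was taken to have the spread of the other groups. Signal over background limits RFC2, measured on 1 of 2 hsa-miR-205-5p arrays and at -0.56 after normexp.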
